A study of Mus musculus with 98 samples.

Results

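The 8 genes *Selp*, *Sele*, *Icam1*, *Icam2*, *Vcam1*, *Ackr1*, *Madcam1* and *Vwf* were followed in the mouse thymic stroma as the endothelial leukocyte adhesion genes. They were chosen by name, with earlier results of these data known, so that counts of members are descriptions. All 8 were present in the 3 expression tables. These held 22231 genes in single cells of the age series, 20760 genes in single cells of newborn mice and 39179 Ensembl genes in sorted populations. The age series comprised 8 10x single-cell libraries of live Ter119-CD45-EpCAM- cells from wild-type mice, in 2 libraries each at 4 weeks, at birth (P0) and at E16.5, and in a single library for each of E13.5 and E12.5. The embryos of the 2 earliest ages were pooled over litters. The newborn comparison comprised Ter119-CD45- cells at P0 in 3 libraries labelled Tbx1+/-Crkl+/-, whose mice carry germline heterozygous losses of both genes with a lacZ allele at *Tbx1*, and in 3 libraries of wild-type littermates. These cells were preserved in RNAprotect before capture. The sorted (bulk) data comprised 84 low-input RNA-seq libraries of CD45- populations from wild-type mice, in 14 groups of 6 libraries, at P0 and 4 weeks. The CD31+ sort, which takes cells bearing the endothelial adhesion protein encoded by *Pecam1*, was compared with the other non-epithelial thymic stroma (NETS): Ly51+gp38- cells, in which pericytes are enriched, and the gp38+CD26- and gp38+CD26+ sorts, in which medullary and capsular fibroblasts are enriched (gp38 is podoplanin and CD26 is dipeptidyl peptidase-4). Of the 6 libraries of each CD31+ age, 3 carried the title prefix TXCK and the others DFCK, whose meaning was not given in the sources used here.

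Leukocytes leave the blood in steps. P-selectin (*Selp*) and E-selectin (*Sele*) capture rolling cells on the vessel wall, and ICAM-1, ICAM-2, VCAM-1 and MAdCAM-1, members of the immunoglobulin superfamily, bind leukocyte integrins to hold them firmly. ACKR1, an atypical chemokine receptor of venular endothelium, binds and carries chemokines without signalling through G proteins, and von Willebrand factor (*Vwf*) is stored together with P-selectin in Weibel-Palade bodies, the secretory granules of endothelium. In the thymus such molecules on vessels are known for the entry of T cell progenitors.

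On the GRCm38 build with GENCODE annotation, *Sele* (ENSMUSG00000026582, chr1:164048234-164057677) and *Selp* (ENSMUSG00000026580, chr1:164115264-164150026) lay on the forward strand 57586 bases apart. *Icam1* (ENSMUSG00000037405) was at chr9:21015985-21028817 and *Madcam1* (ENSMUSG00000020310) at chr10:79664559-79668537, both on the forward strand. *Vwf* (ENSMUSG00000001930) covered chr6:125546774-125686679 on the forward strand. *Icam2* (ENSMUSG00000001029, chr11:106377656-106388075), *Vcam1* (ENSMUSG00000027962, chr3:116109949-116129688) and *Ackr1* (ENSMUSG00000037872, chr1:173331886-173333750) were on the reverse strand. *Ackr1* overlapped *Cadm3* on the same strand, so that reads of the overlapping stretch could not be told apart by strand. *Selp*, *Icam1* and *Vcam1* each overlapped an antisense gene, whose reads could not be told apart from theirs where counting ignored strand.

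The 250 bases before the RefSeq gene start (GRCm38.p6) are printed for 4 members. Their promoter windows were available and lay outside the annotated gene. The windows are chr1:164115014-164115263 for *Selp*, chr1:164047984-164048233 for *Sele*, chr9:21015690-21015939 for *Icam1* and chr10:79664309-79664558 for *Madcam1*, all on the forward strand, 5′ to 3′. Capitals mark the letters GGANNNTCC, a form of the site bound by NF-kappaB, and TATAAA, the core of a TATA box.
Selp: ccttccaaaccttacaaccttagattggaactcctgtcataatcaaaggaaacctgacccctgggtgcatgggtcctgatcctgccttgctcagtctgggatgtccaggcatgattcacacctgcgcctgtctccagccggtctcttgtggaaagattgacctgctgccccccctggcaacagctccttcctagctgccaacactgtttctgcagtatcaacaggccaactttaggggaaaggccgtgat
Sele: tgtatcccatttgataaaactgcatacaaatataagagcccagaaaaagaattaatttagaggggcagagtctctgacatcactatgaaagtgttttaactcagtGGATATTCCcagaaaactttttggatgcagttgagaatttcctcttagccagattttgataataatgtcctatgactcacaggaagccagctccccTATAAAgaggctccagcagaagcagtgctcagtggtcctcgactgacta
Icam1: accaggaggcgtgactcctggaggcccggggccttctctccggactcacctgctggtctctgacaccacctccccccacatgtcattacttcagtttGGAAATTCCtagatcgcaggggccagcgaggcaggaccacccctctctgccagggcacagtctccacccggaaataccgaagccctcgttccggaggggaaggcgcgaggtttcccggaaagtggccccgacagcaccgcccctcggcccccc
Madcam1: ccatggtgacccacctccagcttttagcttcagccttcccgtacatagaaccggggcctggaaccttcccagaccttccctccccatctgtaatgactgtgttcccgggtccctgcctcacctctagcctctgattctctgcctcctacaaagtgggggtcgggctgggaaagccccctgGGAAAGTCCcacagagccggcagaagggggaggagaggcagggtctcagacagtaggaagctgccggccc
GGANNNTCC, searched on both strands, was found in *Sele* at positions -145 to -137 before the start, in *Icam1* at -153 to -145 and in *Madcam1* at -70 to -62, and these letters were not in the *Selp* window. It was found in 7.27% of 32851 promoter windows of the same length. TATAAA was found in *Sele*, at -49 to -44, and in 12.4% of all windows. The motifs were chosen after the sequences had been seen, and a match is a description of letters. Windows of *Ackr1*, *Icam2*, *Vcam1* and *Vwf* are not printed, and a link between these letters and the age changes was not tested.

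CD31+ libraries held 9131362 to 14827366 gene counts at P0 and 11094404 to 13477088 at 4 weeks. The other sorted libraries held 5785352 to 15852166, apart from gp38+CD26+ 4-week replicate 2, which held 25702 and was left out of all groups. The age series held 36208 cells in 19 annotated subtypes, of which 3653 were endothelial: 449 arterial (EnA), 2366 capillary (EnC) and 838 venous or lymphatic (EnVL). Each library held 28583048 to 93040640 unique molecular identifiers (UMIs, counted transcripts), and the median per endothelial cell ranged from 17569 at E12.5 to 5587 in a 4-week library. The labels rest on the same cells, so that levels of their defining genes are a description. *Pecam1* had a mean of 1196 counts per 1000000 (CPM) in EnA, 915 in EnC and 1169 in EnVL and at most 7.54 in any other subtype. The venous and capillary gene *Aplnr* had 35.7, 456 and 490 CPM in the same order, the arterial gene *Gja5* had 269, 3.12 and 1.56, and the lymphatic gene *Lyve1* had 0.518, 1.33 and 66.4. Of other lymphatic genes, *Prox1* and *Ccl21a* were also highest in EnVL, but *Flt4* had 35.0 CPM in EnC and 30.4 in EnVL. The lymphatic *Pdpn* had 11.6 CPM in EnVL and up to 220 outside endothelium. The venous *Nr2f2* had 150 CPM in EnVL and up to 495 outside endothelium. Cell barcodes shared between libraries of the age series made up 0.856% of cells.

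In CD31+ cells, the rolling receptor *Selp*, the chemokine-binding *Ackr1*, *Vwf* and *Vcam1* were higher at 4 weeks than at P0, *Madcam1* and *Sele* were lower, and *Icam1* and *Icam2* did not pass the test. Thus 6 of the 8 members passed (edgeR quasi-likelihood test with Benjamini-Hochberg adjustment over all genes), against 5.09% of the 11333 genes tested. Of the members, 4 rose, against 3.19% of all genes, and 2 fell, against 1.91%. *Madcam1*, without a count in 5 of 6 libraries at 4 weeks, entered the test through P0. The counts of 6 and 2 are therefore not read against the shares. The median log2 fold change was 0.99 over the members and -0.07 over all genes tested.

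*Selp* had 25.1, 180.7, 227.9, 112.5, 129.1 and 177.0 CPM in the 6 P0 libraries and 409 to 897 CPM, with a median of 721, at 4 weeks. Every 4-week library was above every P0 library, and P0 replicate 1 was far below the other P0 libraries. The log2 fold change was 2.38 (SE 0.40, edgeR adjusted p = 0.00255). *Ackr1* rose from a lowest, median and highest value of 50.6, 133 and 157.7 CPM to 791, 913 and 987 CPM, by 3.03 on the log2 scale (SE 0.24, edgeR adjusted p = 6.34e-06). Its groups were also separate. *Cadm3*, whose reads could enter the count, had medians of 0.160 and 0.279 CPM in these groups. *Vwf* rose from 116, 259.9 and 351 CPM to 609, 675 and 817 CPM, by 1.57 (SE 0.22, edgeR adjusted p = 0.000722), without overlap. *Selp* and *Vwf*, whose products share the storage granule, both rose in this sort.

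Of the integrin ligands, *Vcam1* had 29.4, 97.1 and 126 CPM at P0 and 236, 269 and 287 CPM at 4 weeks, a log2 fold change of 1.70 (SE 0.29, edgeR adjusted p = 0.00327), and the groups did not overlap. *Madcam1*, the ligand of the gut-homing integrin, had 70.7, 171.6 and 324 CPM at P0. At 4 weeks it had no count in 5 libraries and 7.65 CPM in the other (fitted log2 fold change -7.02, SE 1.34, edgeR adjusted p = 0.00636). *Icam1* had 83.6, 166 and 219 CPM at P0 and 167.1, 197.0 and 239 CPM at 4 weeks, and its log2 fold change of 0.41 (SE 0.21) did not pass (edgeR adjusted p = 0.344). *Icam2*, which is constitutive on endothelium, had 199, 424 and 823 CPM and 389, 527 and 546 CPM, a log2 fold change of 0.27 (SE 0.26, edgeR adjusted p = 0.681). Both pairs of groups overlapped.

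*Sele* was the weakest call. It had 10.9, 50.4 and 64.8 CPM at P0 and 6.08, 12.1 and 19.4 CPM at 4 weeks, with overlap, and fell by 1.75 on the log2 scale (SE 0.47, edgeR adjusted p = 0.0467). The 3 TXCK libraries at P0 held 60.9 to 64.8 CPM and the 3 DFCK libraries 10.9 to 39.99 CPM. The call was kept in 3 of 19 alternative analyses, with an adjusted p of 0.0726 when the prefix was a term of the fit, 0.164 in the TXCK libraries and 0.681 in the DFCK libraries. Among the 11333 genes, 3.16% had every 4-week library above P0, as had *Selp*, *Ackr1*, *Vwf* and *Vcam1*, and 3.36% had every 4-week library below, as had *Madcam1*.

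Within the prefixes, *Selp* rose in DFCK libraries (edgeR adjusted p = 0.0270) and had a log2 fold change of 2.58 with an adjusted p of 0.235 in TXCK libraries, where P0 spanned 25.1 to 227.9 CPM. *Ackr1* passed in both sets. *Madcam1* passed in TXCK libraries and had an adjusted p of 0.110 in DFCK libraries. *Vcam1* passed in neither set (1.86, 0.196 in TXCK and 1.58, 0.0652 in DFCK libraries), and *Vwf* had 1.91 (0.0934) and 1.29 (0.0498) in the same order. When all sorted groups shared 1 estimate of the spread, 2 members passed, *Vcam1* and *Madcam1*, and *Selp* (2.43, 0.141), *Ackr1* (3.06, 0.106), *Vwf* (1.61, 0.311) and *Sele* (-1.72, 0.524) did not, with log2 fold changes close to those above.

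**Figure D1:**
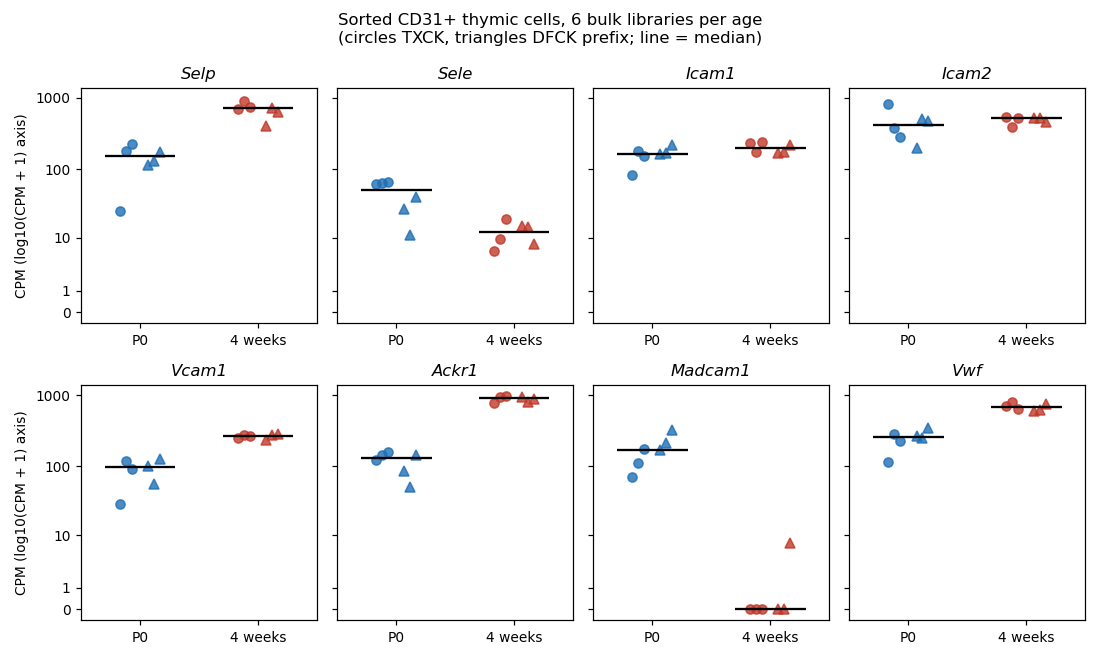
Expression of the 8 genes in sorted CD31+ cells at P0 and 4 weeks, in CPM on a log10(CPM + 1) axis. Each point is 1 library (circles, TXCK prefix; triangles, DFCK prefix) and each line is the median of 6. *Selp*, *Ackr1*, *Vwf* and *Vcam1* lie higher at 4 weeks without overlap, *Madcam1* drops to 0 in 5 of 6 libraries, and *Icam1* and *Icam2* overlap.

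Levels in CD31+ cells were also divided by the merged length of all annotated exons, 16064 bases for *Vwf* and 8870 for *Vcam1*. This length can exceed that of a single transcript, and the order depends on it. Per kilobase, the P0 levels were ordered *Icam2* (median 223 CPM per kb), *Madcam1* (119.5), *Ackr1* (94.8), *Icam1* (38.1), *Selp* (34.7), *Sele* (17.3), *Vwf* (16.2) and *Vcam1* (10.9). The per-library ranges of neighbours in this order overlapped. At 4 weeks *Ackr1* led with a median of 650 CPM per kb (562.7 to 702.5), above *Icam2* at 277 (204 to 287) and *Selp* at 163.4 (92.8 to 203). *Icam1* (45.2), *Vwf* (42.03) and *Vcam1* (30.3) followed, with overlap of *Icam1* and *Vwf*, and then *Sele* (4.17) and *Madcam1* (0).

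Transcripts of other cell types and of the dissociation response in the CD31+ sort also moved with age. The summed level of 8 endothelial genes was 8014 to 11507 CPM at P0 and 8442 to 9925 CPM at 4 weeks, and 1 of them, the tight junction gene *Cldn5*, fell by 0.74 (edgeR adjusted p = 0.0385). The 5 mural cell genes summed to 25.8 to 157.965 CPM at P0 and 628 to 1820 CPM at 4 weeks, and the pericyte gene *Rgs5* rose by 4.22 on the log2 scale (edgeR adjusted p = 0.000115). The 3 erythroid genes, which summed to 5.97 to 258 CPM at P0 and 231 to 6064 CPM at 4 weeks, all rose, among them *Alas2* by 5.51 and *Hba-a1*, which can share reads with a near-identical copy, by 5.35. The 10 genes of the response to tissue dissociation summed to 8831 to 19891 CPM and 2263 to 8945 CPM, and 2 of them fell, *Junb* by 1.07 and *Ier2* by 0.99. Summed fibroblast genes reached at most 108.3 CPM, thymocyte genes 46.5, platelet genes 41.0, epithelial genes 16.9 and myeloid genes 15.2 CPM in any CD31+ library. Of these lists 1 of 5, 2 of 8, 1 of 7, 1 of 6 and 1 of 6 genes were tested, in the same order, and none of those passed. Pericytes of the single-cell data had means of 2.13 CPM of *Ackr1*, 0.500 of *Selp* and 3.34 of *Vwf*, but 85.7 CPM of *Vcam1*. The part of these other transcripts in the age changes was not tested. In sorted populations, fewer cells of a type and less RNA per cell cannot be told apart.

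Other genes of leukocyte traffic in CD31+ cells were taken as lists. Of all genes tested, 3.19% rose and 1.91% fell. Of 24 further genes of vascular adhesion and transmigration, 19 were tested, 4 rose and 0 fell, with a median log2 fold change of 0.46. *Cxcl12*, a chemokine of progenitor homing, rose from 246, 293 and 410 CPM to 1983, 2129 and 3024 CPM (log2 fold change 2.95, SE 0.16, edgeR adjusted p = 1.17e-07). *Cx3cl1*, the membrane-bound chemokine fractalkine, rose by 1.41 (edgeR adjusted p = 0.00681). Of 18 genes of the Weibel-Palade body, 16 were tested, 2 rose and 1 fell, with a median of -0.12. The cargo gene *Angpt2* rose by 2.26 (edgeR adjusted p = 0.00494) and the small GTPase *Rab3d* by 1.35 (0.00181), whereas its relative *Rab3b* had 1.64 to 11.2 CPM at P0 and no count at 4 weeks. Of 21 genes of inflammatory endothelial activation, 20 were tested, 2 rose, *Traf1* by 2.72 (0.0454) and *Birc3* by 1.45 (0.00847), and 0 fell, with a median of 0.17. Among genes of vessel identity, the arterial *Gja5* (1.52) and *Hey1* (1.22) rose, 2 of 8 on that list (median 0.40). On the venous list *Aplnr*, which EnC also held, fell by 1.06, 1 of 4 (median -0.50), and on the capillary list *Gpihbp1* fell by 1.28, 1 of 5 (median -0.92). Of 6 lymphatic genes 2 were tested and 0 passed.

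Outside the CD31+ sort, *Sele* fell with age in both gp38+ sorts, *Vcam1* rose in gp38+CD26- and Ly51+gp38- cells and fell in gp38+CD26+ cells, and *Icam1* rose in gp38+CD26- and Ly51+gp38- cells. Endothelial genes summed to 46.9 to 100.7 CPM at P0 and 13.9 to 56.7 at 4 weeks in gp38+CD26- cells, to 5.12 to 17.7 and 7.97 to 117.2 in gp38+CD26+ cells and to 482 to 734 and 453 to 693 in Ly51+gp38- cells, and their part in these changes was not tested. Some of these endothelial genes were also found in other cells: *Esam* had up to 262 CPM, *Emcn* 79.9 and *Kdr* 76.7 in single-cell subtypes outside endothelium. The sums are therefore not a measure of endothelial cells in these sorts. In gp38+CD26- cells 5 of 7 tested members passed, against 24.3% of all genes. Since *Madcam1* entered this test through P0, where it was higher, the count is not read against the share. *Sele* had 53.4, 129 and 162 CPM at P0 and 2.31, 9.41 and 16.4 CPM at 4 weeks, a log2 fold change of -3.50 (SE 0.41, edgeR adjusted p = 2.77e-05) without overlap. *Icam1* rose without overlap, from 27.6, 59.8 and 106.7 CPM to 135.99, 179.1 and 212 CPM (log2 fold change 1.61, SE 0.25, edgeR adjusted p = 0.000245). *Vcam1* rose by 0.75 (SE 0.16, edgeR adjusted p = 0.00362), from a median of 269.6 to 408 CPM with overlap. *Icam2* (log2 fold change 2.09, edgeR adjusted p = 0.0452) and *Madcam1* (-4.55, 0.0253) were at low levels, with medians of at most 16.3 CPM. The *Icam2* call was kept in 6 of 19 alternatives, and that of *Madcam1* ended without P0 replicate 6 (0.0736).

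In gp38+CD26+ cells 3 of 5 tested members passed, against 13.2% of all genes. Of these, *Sele* and *Ackr1* entered the test through the age where they were high, so that the count is not read against the share. *Sele* had 22.2, 76.5 and 258 CPM at P0 and at 4 weeks no count in 4 of 5 libraries and 2.06 CPM in the other (fitted log2 fold change -7.76, SE 1.23, edgeR adjusted p = 0.00115). *Vcam1* fell without overlap, from 119.4, 181 and 216 CPM to 30.2, 88.4 and 103.1 CPM (log2 fold change -1.07, SE 0.26, edgeR adjusted p = 0.0181). *Ackr1* had no count in 4 of 6 P0 libraries and 3.25, 9.32 and 13.8 CPM at 4 weeks (edgeR adjusted p = 0.0435, kept in 6 of 19 alternatives), and the overlapping *Cadm3* had medians of 1.02 and 15.6 CPM there. *Icam1* did not pass (log2 fold change 0.53, 0.461). In Ly51+gp38- cells 2 of 5 passed, against 11.9%. *Vcam1* rose from 29.2, 60.1 and 92.4 CPM to 90.1, 129 and 175.2 CPM (log2 fold change 1.20, SE 0.30, edgeR adjusted p = 0.0168), and *Icam1* by 1.15 (SE 0.33, 0.0350), a call kept in 8 of 19 alternatives. *Sele* there had a median of 22.3 CPM at P0 and no count in 5 of 6 libraries at 4 weeks, and did not pass (0.271).

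The age changes of CD31+ and gp38+CD26- cells were set against each other in 1 fit. Of the 8 members, 2 differed, against 8.52% of all genes. *Selp* had a difference of 5.04 on the log2 scale (SE 1.27, edgeR adjusted p = 0.0151), but in gp38+CD26- cells it was near the floor, with medians of 4.07 and 0.367 CPM and a change that did not pass (0.261), and the difference ran from 4.48 to 10.07 over the alternatives. *Icam1* had a difference of -1.21 (SE 0.34, 0.0259). The *Icam1* difference ended without CD31+ P0 replicate 6 (0.0565). With a block by the place of the library number in the title, the differences were 5.06 and -1.24 and neither passed (0.0898 and 0.0804). The differences of *Sele* (1.74, 0.0775) and *Vcam1* (0.93, 0.103) did not pass.

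**Figure D2:**
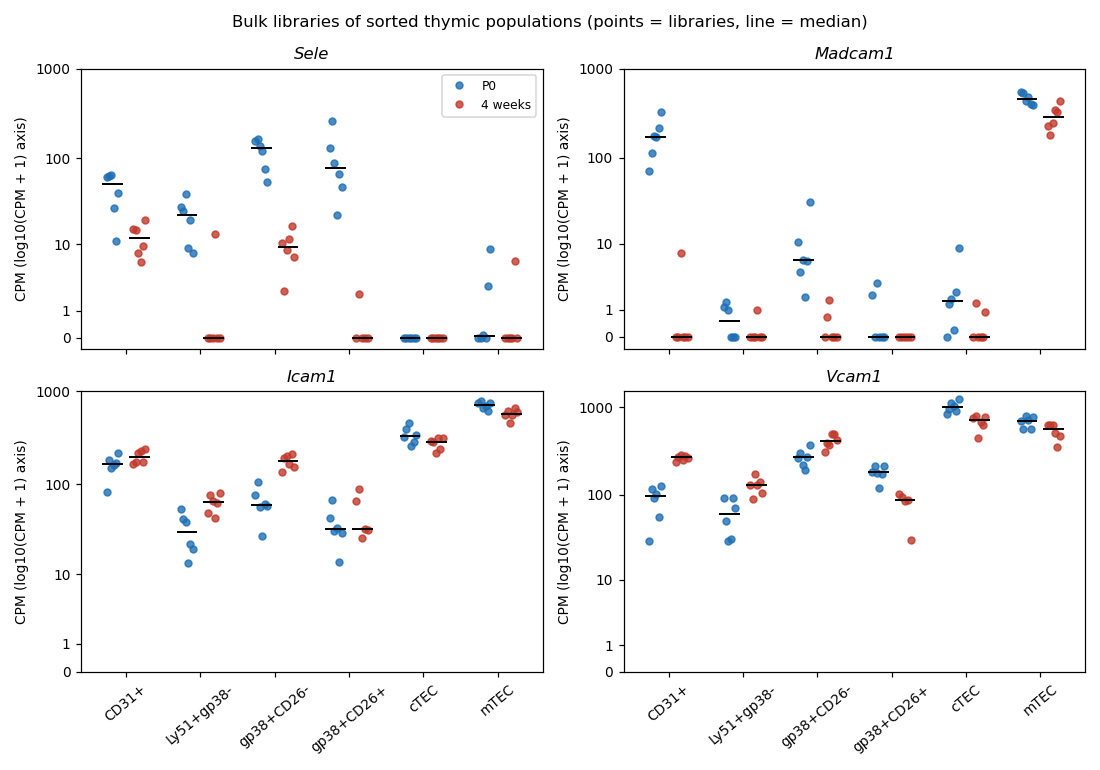
*Sele*, *Madcam1*, *Icam1* and *Vcam1* in sorted populations at P0 (blue) and 4 weeks (red), in CPM on a log10(CPM + 1) axis. Each point is 1 library and each line is a group median. *Sele* is lower at 4 weeks in the gp38+ sorts, and *Madcam1* is at 0 in 5 of 6 CD31+ libraries at 4 weeks but at 179.1 CPM or more in medullary epithelial cells (mTEC; cTEC are cortical).

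Against the other 3 NETS sorts, 31.8% of all genes differed in CD31+ cells at P0 and 32.2% at 4 weeks. Of the members, 7 of 8 tested passed at P0 and 6 of 7 at 4 weeks, and since most of them entered the test only through CD31+ cells, these counts are not read against the shares of all genes. At P0 *Ackr1*, *Vwf*, *Selp*, *Icam2*, *Madcam1* and *Icam1* were higher in CD31+ cells. No library of the other sorts held over 1.68 CPM of *Ackr1*, 2.22 of *Vwf*, 12.7 of *Selp*, 14.1 of *Icam2* or 30.95 of *Madcam1*, where the lowest CD31+ libraries held 50.6, 116, 25.1, 199 and 70.7 CPM, and several of these groups were mostly at 0, so that folds are not given and the genes entered the test through CD31+ cells. *Icam1* was higher by 1.87 (SE 0.26, edgeR adjusted p = 4.73e-06). *Vcam1* was lower (-0.80, SE 0.27, edgeR adjusted p = 0.0235), a call that ended without CD31+ P0 replicate 1 (0.0546) or replicate 5 (0.0687). At 4 weeks *Vcam1* was higher in CD31+ cells (0.59, SE 0.17, 0.00768), together with *Selp*, *Vwf*, *Ackr1*, *Icam2* and *Icam1*. *Sele* did not pass at either age (-0.60, 0.309 and 2.44, 0.121), though it passed at 4 weeks with a block by the place of the library number in the title. Between gp38+CD26- and gp38+CD26+ cells, 0 of 6 tested members passed at P0, against 3.35% of all genes, and 2 had an unadjusted p under 0.05, *Vcam1* (0.0103) and *Madcam1* (0.0270), as had 1861 of all 11967 genes. DESeq2 called 1 member there. At 4 weeks 14% of all genes and 3 members passed. *Vcam1* (log2 fold change 2.31, edgeR adjusted p = 8.86e-05) and *Icam1* (1.79, 0.00170) were higher in gp38+CD26- cells, and *Vwf* had 0 to 7.03 CPM there and no count in gp38+CD26+ cells. *Vwf* therefore entered the test through 1 of the sorts, so that the count is not read against the share. Its call ended with a block by the place of the library number in the title (0.0930), with which *Sele* passed.

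Single cells showed in which subtypes these transcripts were found. These are descriptions, since the clusters rest on the same cells. Averaged over libraries, *Selp* had 274 CPM in EnVL and 7.94 in EnC, the next subtype. After thinning each cell to 2000 UMIs, a depth that 96.4 to 100% of endothelial cells in each library reached, 27.2% of EnVL cells, 0.903% of EnA cells, 0.815% of EnC cells and 0.15% of non-endothelial cells held a *Selp* UMI (56.7% of EnVL cells before thinning). *Ackr1* had 246 CPM in EnVL and 24.7 in CapFb4, a capsular fibroblast subtype, the highest value outside endothelium. *Vwf* had 354 CPM in EnVL, 173.1 in EnA and 13.49 in EnC. *Madcam1* was shared by EnVL and EnC (29.9 and 22.8 CPM), and *Icam2* was highest in EnA (964 CPM) and present in EnC (514) and EnVL (452). *Icam1*, *Vcam1* and *Sele* were not endothelial alone. *Icam1* had 470 CPM in EnVL and 254 in the medullary fibroblasts MedFb1a, *Vcam1* had 277 in MedFb2b (over 6 libraries) and 242 in EnVL (over 8, with the low early ages), and *Sele* had 221 in MedFb1a, 128 in CapFb1b and 90.6 in EnVL.

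**Figure D3:**
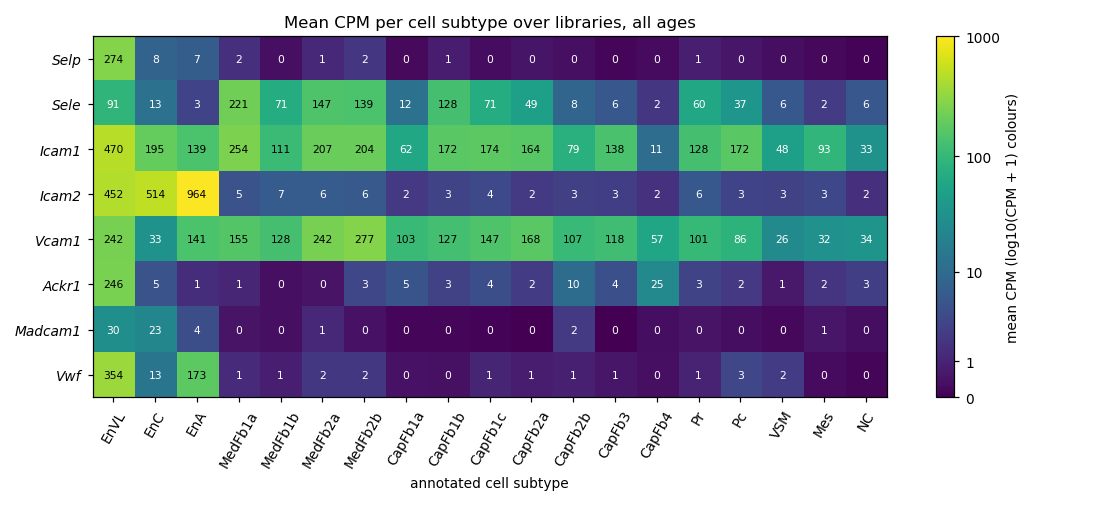
Mean CPM of the 8 genes in the 19 stromal subtypes, over the libraries of all ages, with colour on a log10(CPM + 1) scale and the value printed in each cell. *Selp*, *Ackr1* and *Vwf* peak in EnVL, *Icam2* in EnA, and *Sele* in medullary fibroblasts. Subtypes differ in the ages they cover, and *Vcam1*, with its highest mean in MedFb2b, was highest in EnVL at P0.

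At 4 weeks, 7 of the 8 members were higher in EnVL than in EnA and EnC by their mean, as were 29.4% of 12497 genes with a mean of at least 1 CPM over these subtypes, and *Icam2* was highest in EnA (764 and 877 CPM). The subtypes were clustered on the same cells, so that this is a description. *Madcam1* rested on 17 UMIs in EnVL, 2 in EnA and 0 in EnC, and in replicate 2 it had 3.62 CPM in EnVL and 4.79 in EnA. *Selp* had 573 and 306 CPM in the EnVL libraries, against 15.6 and 14.7 in EnC and 1.82 and 2.40 in EnA. *Vwf* had 692 and 551 CPM in EnVL and 191.04 and 126.9 in EnA. *Ackr1* had 822 and 473 CPM in EnVL and no UMI in EnA. For all 3, both EnVL libraries lay above those of EnA and EnC, as they did for 12.1% of the same genes. EnVL held 94.7 and 88.2% of all stromal *Selp* UMIs at 4 weeks, 78.5 and 73.7% of *Vwf* and 73.7 and 45.3% of *Ackr1*. Fibroblasts held 71.9 and 87.8% of *Sele*, 74.1 and 80.9% of *Icam1* and 77.6 and 83.9% of *Vcam1* UMIs, and 23.8 and 48.7% of those of *Ackr1*. Such shares also follow how many cells and UMIs each class held. The share of all UMIs held by fibroblasts was not set beside them, so that they are not read as a trait of these genes. The ranges of *Icam1* in EnVL (253 to 308 CPM) and MedFb1a (234 to 245) did not meet, and those of *Sele* in EnVL (55.5 to 106) and MedFb1a (39.8 to 102) overlapped. *Vcam1* was higher in MedFb2a (366 to 411) than in EnVL (317 to 322).

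Within EnVL at 4 weeks, 195 cells could be thinned to 2000 UMIs. *Selp* was found in 82 of them and *Ackr1* in 82, and 52 held both. *Ackr1* was found in 63.4% of cells with *Selp* and in 26.5% of cells without, and *Vwf* in 62.2% and 42.5%. *Icam2* went the other way, with 47.6% and 60.2%. These shares come from 2 libraries that differed in level (*Selp* in 53.1% and 30.9% of thinned EnVL cells), and are given without a test. EnVL spans venous and lymphatic vessels. At P0, EnVL cells with a UMI of the lymphatic genes *Prox1* or *Lyve1*, a call that also depends on depth per cell, had 262 and 281 CPM of *Selp*, against 522 and 668 CPM in those without. *Madcam1* had 5.96 and 0 CPM against 51.9 and 30.5, and *Vwf* the reverse order, 638 and 569 CPM against 358 and 400.2.

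Over the 5 ages, all 8 members changed in single-cell endothelium, against 60.8% of 12236 genes (edgeR adjusted p from 1.22e-05 to 0.00472). Members low at some ages, among them *Selp*, *Ackr1* and *Madcam1*, could enter the test through other ages. The count is therefore not read against the share. *Selp* rose from 0.41 CPM at E12.5 and 1.18 at E13.5 to 31.5 and 50.6 at E16.5 and 178.8 and 169 at P0. *Ackr1* had 7.82 and 1.93 CPM at the first ages, 11.4 and 14.3 at E16.5, 113.1 and 77.4 at P0 and 275 and 147 at 4 weeks. *Vcam1* had 4.94 and 10.9, then 31.7 and 64.2, and then 198 and 215 CPM. These 3 genes were thus low in the early embryo. *Vwf* had its lowest values at E16.5, 32.7 and 47.3 CPM, after 71.2 at E12.5 and 76.9 at E13.5 and before 198 and 178 CPM at P0 and 270.4 and 191.9 at 4 weeks. *Icam1* had 194.3 and 150.7 CPM at the first ages, 284 and 313 at E16.5 and its highest values at P0. *Icam2* had 430.1, 600.1, and then 716 and 650.0 CPM. *Madcam1* went the other way, with 62.1, 42.8, 22.5 and 21.3, 19.1 and 17.0, and 4.35 and 1.74 CPM at the 5 ages. The 2 earliest ages, with a single library each, have no spread of their own.

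From E16.5 to P0, 6 members passed, against 28.8% of all genes. *Ackr1* rose by 2.71 (SE 0.30, edgeR adjusted p = 0.000656), *Vwf* by 2.06 (SE 0.19, 0.00034), *Vcam1* by 1.93 (SE 0.26, 0.00141) and *Selp* by 1.91 (SE 0.30, 0.00234) on the log2 scale. *Sele* rose from 27.0 and 33.7 to 62.7 and 99.1 CPM (1.25, SE 0.27, 0.00903), and *Icam2* fell from 716 and 650.0 to 505 and 419 CPM (-0.73, SE 0.14, 0.00514). Without P0 replicate 2 the adjusted p was 0.0824 for *Sele* and 0.0625 for *Icam2*. *Icam1* (0.38, 0.0575) and *Madcam1* (-0.45, 0.137) did not pass. The *Icam1* value lay near the threshold and passed in 6 of 15 alternatives, with an adjusted p of 0.0245 without P0 replicate 1 and 0.0313 with DESeq2, against 0.275 without P0 replicate 2.

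From P0 to 4 weeks, 4 members passed, against 24.2% of all genes, in a comparison that shares its P0 libraries with the former. *Madcam1*, with 4.35 and 1.74 CPM at 4 weeks, could enter the test through younger ages, so that the count is not read against the share. *Icam1* fell from 389 and 482 to 175.1 and 143.6 CPM (log2 fold change -1.52, SE 0.14, edgeR adjusted p = 0.000128), *Sele* from 62.7 and 99.1 to 37.2 and 20.5 (-1.55, SE 0.29, 0.00563), and *Madcam1* by 2.60 on the log2 scale (SE 0.31, 0.000527). *Ackr1* rose by 1.08 (SE 0.26, 0.0181). The *Ackr1* call ended without P0 replicate 2 (0.119) or 4-week replicate 1 (0.145), and that of *Sele* without 4-week replicate 2 (0.0537). *Selp* had 198 and 97.0 CPM at 4 weeks, a log2 fold change of -0.30 (SE 0.29, 0.480). It was 0.10 without 4-week replicate 2, -0.87 without 4-week replicate 1 and -0.73 after thinning (0.0438). *Vcam1* (-0.31, 0.411), *Vwf* (0.23, 0.393) and *Icam2* (0.08, 0.721) did not pass either. In CD31+ sorts the same age step gave log2 fold changes of 2.38 for *Selp*, 1.70 for *Vcam1*, 1.57 for *Vwf* and 0.41 for *Icam1*, so that these genes had other values in the 2 assays, and the difference between assays was not tested.

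**Figure D4:**
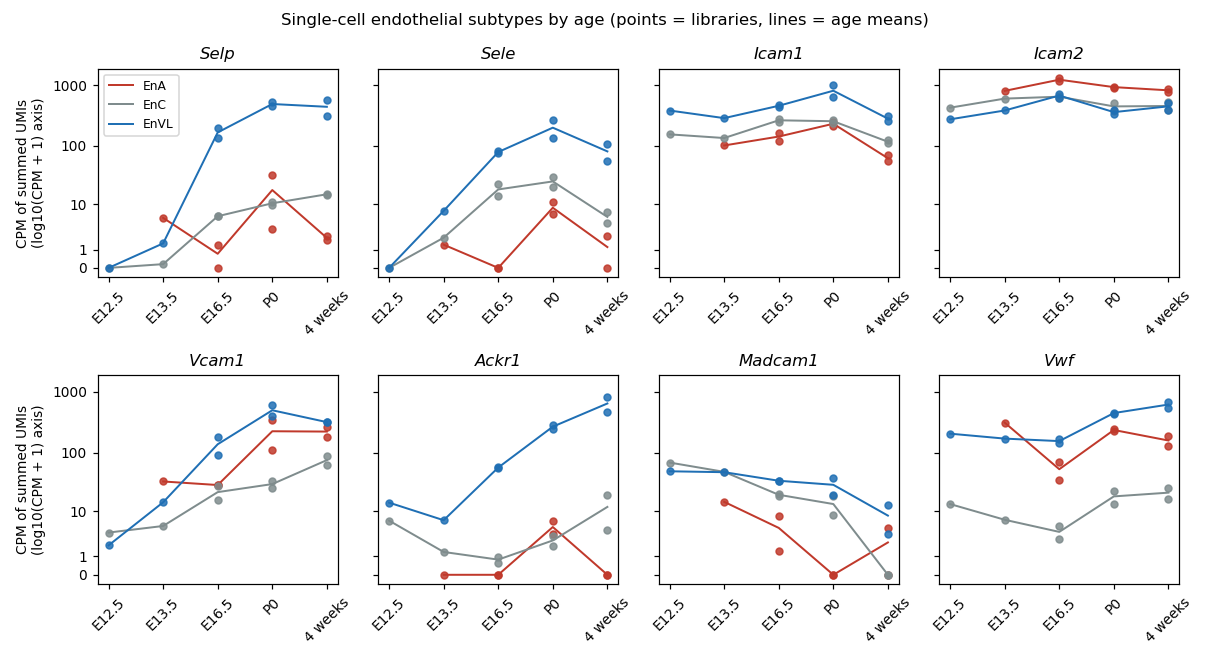
CPM of the 8 genes in EnA (red), EnC (grey) and EnVL (blue) from E12.5 to 4 weeks, on a log10(CPM + 1) axis. Points are libraries of summed cells and lines join age means. *Selp*, *Ackr1* and *Vcam1* are higher in EnVL at P0 than at E16.5, *Ackr1* is higher again at 4 weeks, *Madcam1* declines in EnC and EnVL, and *Icam2* stays high in all 3.

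In the same endothelial cells, dissociation genes summed to 2586 CPM at E12.5, 2839 at E13.5, 6170 and 6537 at E16.5, 12219 and 12139 at P0 and 11289 and 9582 at 4 weeks. Erythroid genes had 107.3 and 16725 CPM at P0 and 11577 and 21903 at 4 weeks, and mural genes 249.97 and 475 and then 377 and 1161 CPM. Lymphatic genes had 594 and 294 CPM at P0 and 38.2 and 29.9 at 4 weeks. EnVL made up 33.6 and 28.5% of endothelial cells at P0 and 23.5 and 21.9% at 4 weeks. EnA made up 21.5% at E13.5, 5.34 and 6.94% at E16.5, 10.2 and 10.7% at P0 and 18.6 and 16.03% at 4 weeks. Within EnVL, cells with a UMI of *Prox1* or *Lyve1* were 28.4 and 30.1% at P0 and 1 and 3.09% at 4 weeks. The part of these in the changes of the members, also within EnVL, was not tested.

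In EnVL from P0 to 4 weeks, 4 of 8 members passed, against 14.6% of all genes. *Madcam1*, low at 4 weeks, could enter this test through younger ages, so that the count is not read against the share. *Ackr1* rose from 291 and 246 to 822 and 473 CPM (log2 fold change 1.22, SE 0.22, edgeR adjusted p = 0.00331), and *Icam1* fell from 625 and 991 to 308 and 253 CPM (-1.57, SE 0.21, 0.000525). *Sele* had 133 and 265 and then 106 and 55.5 CPM (-1.31, SE 0.33, 0.0202), with an adjusted p of 0.163 after thinning, 0.143 without P0 replicate 2 and 0.147 without 4-week replicate 2. *Madcam1* had 38.2 and 19.8 and then 13.1 and 3.62 CPM (-1.77, SE 0.46, 0.0248), but its 4-week value rested on 14 and 3 UMIs, and the adjusted p was 0.222 after thinning, 0.124 with DESeq2, 0.205 without P0 replicate 1 and 0.125 without 4-week replicate 2. *Selp* had 445 and 532 CPM at P0 and 573 and 306 at 4 weeks (-0.19, 0.685), with groups that overlapped. *Vwf*, 441 and 459.6 and then 692 and 551 CPM, did not pass (0.42, 0.0972). *Vcam1* had 397 and 605 and then 322 and 317 CPM and did not pass (-0.69, 0.134), but had an adjusted p of 0.000266 without a filter on low counts, and of 0.0460 and 0.0411 without E16.5 replicate 1 or 2.

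In EnC 4 members passed, against 20.4% of all genes. *Madcam1*, without a UMI at 4 weeks, entered that test through younger ages, so that the count is not read against the share. *Icam1* fell from 241 and 268 to 123 and 110 CPM (-1.19, SE 0.12, edgeR adjusted p = 0.000263) and *Sele* from 20.2 and 30.3 to 4.36 and 7.36 CPM (-2.17, SE 0.42, 0.00760). The *Sele* call ended without P0 replicate 2 (0.0574) or 4-week replicate 1 (0.0781). *Madcam1* had 8.47 and 18.5 CPM at P0 and no UMI in either 4-week library, where 3 UMIs would be 1.87 and 1.84 CPM (edgeR adjusted p = 0.00227). *Vcam1* rose by 1.26 (SE 0.31, 0.0226), a call that ended when any of the 4 libraries was left out (0.0508 to 0.155). In EnA 1 of 5 tested members passed, against 9.08%: *Icam1* fell from 246 and 216 to 69.1 and 55.1 CPM (-1.98, SE 0.26, 0.00014). This call ended when cells were thinned to 2000 UMIs (-1.30, edgeR adjusted p = 0.0723).

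Fibroblasts also carried *Sele*, *Icam1* and *Vcam1*, and in single cells their time courses were not tested against those of endothelium. The medullary and capsular classes pool subtypes, whose part in these courses was not tested. From P0 to 4 weeks, mean *Icam1* fell in MedFb1a but not in MedFb1b. Mean *Vcam1* rose in MedFb2a but not in MedFb1a. Over ages 8 of 8 members passed in medullary fibroblasts, against 79.5% of all genes, and 6 of 8 in capsular fibroblasts, against 79.1%, so that the counts lay near the background. In medullary fibroblasts DESeq2 called 4, without *Selp*, *Icam2*, *Ackr1* and *Vwf*, and 3 passed after thinning, *Sele*, *Icam1* and *Vcam1*. *Sele* in medullary fibroblasts had 0 CPM at E12.5, 17.6 at E13.5, 162.9 and 178 at E16.5, 252 and 314 at P0 and 22.0 and 31.8 at 4 weeks (edgeR adjusted p = 1.32e-08). In capsular fibroblasts it had 105 and 208 CPM at P0 and 12.7 and 13.0 at 4 weeks (3.13e-05). *Sele* thus peaked at P0 in both. *Vcam1* had 96.4 and 84.3 CPM at the first ages and 292 and 267 at 4 weeks in medullary fibroblasts (5.49e-08). Capsular fibroblasts had 114 and 92.1 CPM of *Vcam1* at the first ages and 81.6 and 85.4 at 4 weeks (0.00113). Their highest library, at P0, had 166 CPM. The other P0 library was lower, and the mean at P0 was not above that at E16.5. *Icam1* in medullary fibroblasts had 4.05 and 16.9 CPM, 245 and 251 at E16.5, 231 and 241 at P0 and 176.7 and 172.2 at 4 weeks (3.76e-10). The gp38+CD26- sort had *Icam1* medians of 59.8 CPM at P0 and 179.1 at 4 weeks over the last step, and the difference between assays was not tested. *Ackr1* rose in capsular fibroblasts from 0.302 CPM at E12.5 to 3.89 and 3.35 at P0 and 24.8 and 21.6 at 4 weeks (1.97e-06), and stayed at or below 1.70 CPM in medullary fibroblasts. The overlapping *Cadm3* had medians of 1.02 and 15.6 CPM in the gp38+CD26+ sort at P0 and 4 weeks. Its part in the *Ackr1* values of single-cell fibroblasts, CapFb4 among them, was not tested.

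At P0, *Sele* was highest in MedFb1a (500.4 and 554 CPM at its lowest and highest), above MedFb2a (288 to 322), CapFb1b (276 to 364) and EnVL (133 to 265). Fibroblasts held 83.8 and 83.5% of all *Sele* UMIs and EnVL 2.22 and 1.78%, shares that also follow how many cells each class held. *Icam1* was highest in EnVL (625 to 991 CPM), above MedFb1a (379 to 387), and so was *Vcam1* (397 to 605 CPM), above CapFb2a (208 to 368), MedFb2a (268 to 289) and MedFb2b (247 to 249.7). For *Selp*, EnVL held 89.5 and 83.4% of UMIs at P0.

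The genes most like each member were sought by Pearson's r of log2(mean CPM + 1) over the 19 subtypes, among 11490 genes. The 3 nearest to *Selp* were *Tnfrsf11a* (0.957), *Ubd* (0.954) and *Gm36756* (0.951), and to *Vwf* they were *Ms4a6b* (0.972), *Apol7c* (0.960) and *Mctp1* (0.943). *Ackr1* was nearest to *F5* (0.854), *Gpr1* (0.843) and *Fam174b* (0.813). *Sele* was nearest to *Irf8* (0.924), *Birc3* (0.918) and *Vmp1* (0.855), and *Icam1* to *Tifa* (0.918), *Plk3* (0.895) and *Dapk2* (0.850). *Icam2* was nearest to *Apol10b* (0.990), *Ushbp1* (0.990) and *Cyyr1* (0.989), and *Madcam1* to *Aplnr* (0.966), *Fam167b* (0.961) and *Adgrg3* (0.956). *Vcam1* had the loosest matches, *Dram1* (0.816), *Amacr* (0.814) and *Serpina3g* (0.803). All points share the same 8 libraries, and the values are a description.

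In newborn endothelium, no member passed between the 2 genotype labels: 0 of 7 tested, against 0.0126% of 7957 genes, with *Sele* at an unadjusted p under 0.05 and 273 genes in all at that level. *Tbx1* had 0, 0 and 0.872 CPM under the label Tbx1+/-Crkl+/- and 1.79, 0.441 and 0.605 under wild type, and *Crkl* 24.1, 23.6 and 26.9 against 22.99, 25.1 and 18.4 CPM over all cells, so that these genes did not separate the labels. The *Tbx1* values were near the floor, with 0, 0 and 8 UMIs against 13, 6 and 19, too few to tell the labels apart. The 21451 cells, 1665 of them endothelial, held medians of 2391 to 4686 UMIs. In the same order of labels, *Sele* had 86.3, 50.3 and 128 CPM against 162, 199 and 153. The groups did not overlap, a separation that was not counted over all genes, and the log2 fold change of -0.98 (SE 0.28) had an edgeR adjusted p of 0.803. *Selp* had 60.2, 34.2 and 153 against 241, 87.9 and 59.9 CPM (-0.60, SE 0.43), and *Vcam1* 235, 169 and 446 against 309.5, 262 and 308 CPM (-0.07, SE 0.28), both with overlap. *Icam1*, 583, 304 and 433 against 531, 388 and 309.8 CPM, had a log2 fold change of 0.09 (SE 0.26). *Ackr1* had at most 33.6 CPM and *Madcam1* at most 20.9 CPM in any of these libraries.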

How the data were processed

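Counts were taken as deposited. For single cells, the authors aligned and counted with Cell Ranger 3.1.0, kept cells by gene number and mitochondrial share, removed doublets with DoubletFinder and annotated subtypes, and the deposited tables hold UMI counts per cell. For sorted populations, the authors deposited read counts per Ensembl gene. The submitters' processing notes name STAR 2.5.3a, HTSeq and the mm10 build, and the strand setting is not given in the sources used here. Entries that name no gene took 7.814 to 29.4% of sorted counts and were left out.

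UMI counts were summed per library and subtype (at least 20 cells) and divided by summed UMIs to give CPM. Sorted CPM used gene counts as the total. The age, population and genotype comparisons were tested with edgeR 4.0.16 (filterByExpr, TMM, quasi-likelihood, Benjamini-Hochberg over all genes, threshold 0.05) in R 4.3.3, with the SE taken as the absolute log2 fold change divided by the square root of F. The code was tested on simulated data. Python 3.11.15 with pandas 2.3.3, numpy 2.4.6, scipy 1.17.1 and matplotlib 3.10.9 gave the levels and figures. Alternatives were DESeq2 1.42.0, RLE size factors, no filter on low counts, a prefix term or 1 prefix alone, 1 fit over all sorted libraries, the library of 25702 counts, thinning to 2000 UMIs, at least 50 cells, a replicate block, each library left out and, added after seeing the data, the 3 latest ages alone.

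Members and lists were chosen with earlier results of these data known. All 8 members were named, and from each list the genes passing in CD31+ cells with the 2 largest rises and 2 largest falls, and for each member the 3 genes of highest r among those with a mean of at least 10 CPM in a subtype. *Cadm3*, *Tbx1* and *Crkl* were named as checks. Nothing in the labels says that libraries of a group came from separate animals throughout, so p-values measure the spread between these libraries. Deviations of same-numbered libraries correlated at 0.0809 (E16.5 and P0), 0.138 (E16.5 and 4 weeks) and 0.0215 (P0 and 4 weeks), and they were not treated as pairs. Promoter sequences came from RefSeq, where 5 of 8 members matched.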

Additional observations from a re-analysis of the deposited data

Results flagged for a closer look

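In gp38+CD26+ cells at 4 weeks, *Vcam1* in replicate 6 was 30.2 CPM, far below the nearest of the 5 libraries at 85.97 CPM. In the medullary epithelial cells labelled mTEClo, replicate 1 had 524 CPM of *Vcam1*, far above the nearest of 6 libraries at 384 CPM. Such a gap was looked for in 52 groups, and chance gives about 1 in 20.

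The age change of *Selp* was greater in CD31+ cells than in gp38+CD26- cells by 5.04 on the log2 scale, with low levels in gp38+CD26- cells, and that of *Icam1* differed by -1.21, both by the test of the difference itself, though neither passed with a block by the place of the library number (adjusted p 0.0898 and 0.0804).

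Between endothelial subtypes, some members had both 4-week libraries above both P0 libraries in 1 subtype and below them in another, and these differences were not tested. Of the 8 single changes only that of *Vcam1* in EnC passed its own test, and with 2 libraries per age such a separation is a weak criterion. The share of all genes with such a pattern was not counted, so that these members are only listed. As log2 ratios of mean CPM, *Selp* had -3.09 in EnA and 0.53 in EnC, where the EnA values rested on 9 and 1 UMIs at P0 and 1 and 1 at 4 weeks. *Icam2* had -0.18 in EnA and 0.32 in EnVL, *Vcam1* 1.33 in EnC and -0.65 in EnVL, and *Vwf* -0.58 in EnA and 0.46 in EnVL.

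The gp38+CD26+ 4-week library of 25702 counts, which entered no group, held 21 counts of *Vcam1*.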

How the results depend on the processing

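Limits of these data include the 2 libraries per age in single cells and the 1 library at each of E12.5 and E13.5. Counts of *Madcam1* and *Ackr1* outside their main cells were also low. Between P0 and 4 weeks the 2 assays gave other values for *Selp* (2.38 in CD31+ sorts and -0.30 in single-cell endothelium), *Vcam1* (1.70 and -0.31) and *Icam1* (0.41 and -1.52). Outside endothelium, *Icam1* rose in the gp38+CD26- and Ly51+gp38- sorts but was lower at 4 weeks in single-cell medullary fibroblasts and pericytes. Marker transcripts of other cells in the CD31+ sort and the share of EnVL cells with a *Prox1* or *Lyve1* UMI also moved over this step. The causes of the changes listed here were not tested. Of the counts of members passing, 303 alternatives stayed within 1.5 times the count given and 34 did not, and of the values of single members 1467 kept direction and side of the threshold, 121 no longer passed, 10 now passed and 4 turned. The 4 were *Selp* in single-cell endothelium without 4-week replicate 2 (0.10), *Icam2* there without P0 replicate 2 (-0.04) and without 4-week replicate 2 (-0.12), and *Selp* in EnVL without 4-week replicate 2 (0.17), none of which passed the test in the analysis reported. Without 4-week replicate 1 these 3 values were -0.87, 0.26 and -0.70.

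Counts of members passing between P0 and 4 weeks moved as follows. CD31+ cells had 2 with TXCK libraries alone, 3 with DFCK libraries alone and 2 in 1 fit over all sorted libraries. The gp38+CD26- cells had 3 with DFCK libraries alone and 3 in that fit. The gp38+CD26+ cells had 1 with TXCK, 0 with DFCK and 1 with the low-depth library included. Ly51+gp38- cells had 1 without a filter, 0 with TXCK and 0 with DFCK. The difference between CD31+ and gp38+CD26- had 4 with DESeq2, 0 with TXCK and 1 with DFCK. Between the gp38+ sorts DESeq2 gave 1 at P0 and 6 at 4 weeks, and DFCK libraries gave 1 at 4 weeks. Thinning gave 0 in EnA, 2 in EnVL and 3 in medullary fibroblasts, where DESeq2 gave 4.

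Leaving out each library in turn gave 5 to 6 members for CD31+ cells and 3 to 5 for the gp38+CD26- sort. It gave 2 to 3 for the gp38+CD26+ sort, 1 to 3 for Ly51+gp38- cells and 1 to 3 for the difference. It gave 6 to 7 for CD31+ against other NETS at P0 and 6 to 7 at 4 weeks, and 0 and 2 to 4 between the gp38+ sorts. In single-cell endothelium it gave 8 over ages, 3 to 4 for 4 weeks against P0 and 4 to 7 for P0 against E16.5. It gave 2 to 4 in EnC, 1 in EnA, 2 to 5 in EnVL, 7 to 8 in medullary and 5 to 7 in capsular fibroblasts and 0 in newborn endothelium. Of the members, 6 to 7 were highest in EnVL.

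With the replicate number as a block, 8 members passed over ages in endothelium, 4 from P0 to 4 weeks, 7 from E16.5 to P0 (*Icam1* now with an adjusted p of 0.0468), 5 in EnC, 1 in EnA, 4 in EnVL, 8 in medullary and 6 in capsular fibroblasts and 0 in newborn endothelium, where deviations of same-numbered libraries correlated at 0.105, -0.004 and -0.289. Replicate numbers of sorted libraries follow accession order, but the library numbers of their titles are evenly offset between sorts, and whether libraries at the same place share animals is not given in the sources used here. Their deviations correlated at -0.089 to 0.224. A replicate block by this place, chosen after seeing the data, gave 0 members for the difference between CD31+ and gp38+CD26- (adjusted p 0.0898 for *Selp* and 0.0804 for *Icam1*), 7 for CD31+ against other NETS at each age, and 0 and 3 between the gp38+ sorts, where *Vwf* no longer passed (0.0930) and *Sele* did; *Sele* also passed for CD31+ against other NETS at 4 weeks. EnA with at least 50 cells per library could not be run, since no P0 library was left.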

Other observations

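The sort of all medullary epithelium held *Vcam1*, *Icam1* and *Madcam1* at levels above those of CD31+ cells at both ages. Cortical epithelium did so for *Vcam1*, while its *Icam1* libraries overlapped those of CD31+ cells at 4 weeks. *Vcam1* had a lowest, median and highest value of 840, 999.7 and 1250.2 CPM in cortical epithelial cells (cTEC) at P0 and 450, 714 and 792 CPM at 4 weeks, and 561, 699 and 795 and then 355, 563 and 632 CPM in medullary cells (mTEC). *Icam1* had 609, 721 and 792 CPM in mTEC at P0 and 459, 578 and 659 at 4 weeks, and 258, 334 and 456 and then 219, 287 and 320 CPM in cTEC. At 4 weeks *Icam1* had a median of 629 CPM in mTEChi and 402 in mTEClo cells, further sorts of medullary epithelium.

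*Madcam1* was the member with the clearest epithelial difference. In mTEC it had 389, 458 and 550 CPM at P0 and 179.1, 286 and 434 CPM at 4 weeks, while no cTEC library exceeded 8.70 CPM. Within the medulla it had 307, 362 and 535 CPM in mTEChi and 0, 28.7 and 188 CPM in mTEClo cells, without overlap. *Sele* had no count in any cTEC or mTEClo library. *Vwf* had medians of 14.9 and 11.5 CPM and *Selp* of 6.59 and 5.17 CPM in mTEC at P0 and 4 weeks. Endothelial genes summed to 21.7 to 87.7 CPM in mTEC libraries. These groups were compared by their ranges, with no test.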
